A study of Mus musculus with 16 samples.

Results

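Glycolysis and the response to low oxygen were followed in tumour-infiltrating mouse CD8 T cells through 36 listed genes, 24 of glucose uptake, glycolysis and lactate export and 12 of oxygen sensing and hypoxia-induced transcription. The genes were found by symbol among the 55573 rows of the count table, where they took up 37 rows because Aldoa had a second row (ENSMUSG00000114515) with 1 to 12 counts per library. That second row was too low to be tested, and all 36 genes passed the filter on low counts, among 13711 genes tested. The 16 libraries came from OT1 CD8 T cells, whose transgenic receptor recognises ovalbumin, on the C57BL/6 background. They fall into Foxp3UP, MockUP, Foxp3DN and MockDN, with 4 libraries in each group. The cells of every group had been transferred into tumour-bearing hosts and sorted from the tumours as live cells by CD8, CD45.1 and/or CD90.1 at day 5, and the design text describes a mixture of Foxp3UP and Mock cells as the treatment. What UP and DN abbreviate, how Foxp3 was altered, the tumour, the age of the mice and which animals gave each library are not stated in the labels, so p-values measure the spread between these libraries, which may be technical.

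Glycolysis splits glucose into pyruvate in the cytosol, and activated CD8 T cells are known for turning much of that pyruvate into lactate, which leaves the cell through monocarboxylate transporters. HIF-1, made of an oxygen-sensitive alpha subunit and a constitutive partner, induces most genes of the pathway when oxygen is low, and prolyl hydroxylases of the Egln family mark the alpha subunit for destruction when oxygen is present. In T cells, receptor signals and Myc also drive many of the same genes, so the list is not specific to oxygen.

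Library totals ran from 9389477 to 13226590 counts. Foxp3, the lineage factor of regulatory T cells, had 15.2 to 29.5 CPM (the count scaled to library size, with TMM correcting for library composition) in Foxp3UP, with a mean of 12.4 ± 1.12 CPM (SD, n = 4) in MockUP, and was called higher (log2 fold change 0.92, edgeR adjusted p = 0.00233). It had 10.1 to 10.4 CPM in Foxp3DN, against 11 to 14.6 CPM in MockDN, and was not called (edgeR adjusted p = 1). The CD8 T cell markers summed to 5720 to 6960 CPM in Foxp3UP and 3570 to 6090 CPM in MockUP, with 1 of 7 called higher and 0 lower. Of 2 tested CD4 T cell markers, Cd40lg was called lower, at 4.01 to 8.19 CPM in Foxp3UP and 10.9 to 20.8 CPM in MockUP. Cd4 itself had at most 0.759 CPM in either group, while Ms4a1 and Pax5 of B cells were at 0 in every group. Library MockUP 2 stood apart on the second principal component, at 52.8 against -30.1 to 13.4 in the others, and had the lowest share of mitochondrially encoded counts (0.279%). Replicates 1 and 2 carry sample numbers 1 to 8 and replicates 3 and 4 carry 9 to 16, and within each group both libraries of the first set lay above both of the second on the first component.

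Transcripts of the main glycolytic enzymes were abundant. Scaled by exonic length and averaged over the 16 libraries, Ldha, which converts pyruvate to lactate, ranked 17 of the 13711 genes, at 1280 CPM per kilobase. Gapdh, glyceraldehyde-3-phosphate dehydrogenase, ranked 20, Aldoa, the main aldolase, 31, Eno1, alpha-enolase, 43, and Pkm, pyruvate kinase, 63. On the same scale 3 listed genes stayed under 1 CPM per kilobase: Pfkfb4 at 0.502, Eno2 at 0.489 and P4ha2 at 0.620. The 24 glycolysis genes together took 2.54 to 3.07% of all counts in Foxp3UP, against 2.16 to 2.64% in MockUP, and 2.22 to 2.37% in Foxp3DN, against 2.41 to 2.55% in MockDN. The shares overlapped between Foxp3UP and MockUP through MockUP 1, at 2.64%, whereas all Foxp3DN libraries lay below all MockDN libraries.

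The comparison of Foxp3UP with MockUP asks how the transcripts of these pathways differ in the cells with more Foxp3. Of the 36 genes, 7 were called higher and 2 lower at an adjusted p under 0.05 in edgeR, or 25% in all, where 12.1% of all tested genes were called, 6.08% higher and 5.99% lower. The 36 genes were chosen with earlier results of these data known, so this share cannot show an excess. The higher genes were Gpi1, Aldoa, Aldoc and Gapdh of upper and middle glycolysis and Egln3, P4ha1 and Ndrg1 of the hypoxia response. The lower genes were Hk2, a hexokinase, and Slc16a1, the lactate and pyruvate transporter MCT1. Among glycolysis genes alone 4 of 24 were higher and 2 lower, and among hypoxia genes 3 of 12 were higher and 0 lower. The log2 fold change was positive for 31 of the 36 genes, with a median of 0.26, where the median over all tested genes was 0. Some listed genes varied together within groups (correlation r = 0.98 for Tpi1 and Ldha), so such signs are not independent. The libraries of the groups did not overlap for 10 genes that were higher and 2 that were lower; over all tested genes 8.61% were higher and 7.29% lower in that way, 15.9% together. Scaling by library totals shifted the median of all genes by -0.04 and gave 646 higher and 1081 lower calls over all genes, where TMM gave 833 higher and 821 lower, and left 6 listed genes higher and 2 lower.

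How the libraries are modelled moves the count of higher genes. As above, the genes were chosen with earlier results known, so no share in these fits can show an excess. With a term for each same-numbered pair of Foxp3UP and MockUP libraries, 18 of the 36 were higher and 2 lower, where 25.3% of all genes were called, 13.3% higher and 12% lower. With the replicate number as a single block term 13 were higher and 2 lower, where 17.6% of all genes were called, 9.18% higher and 8.38% lower. With only the 8 libraries compared in the fit, Aldoc was the 1 listed gene called higher and Hk2 and Slc16a1 were the 2 called lower, where 5.05% of all genes tested in that fit were called, 2.53% higher and 2.53% lower.

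**Figure D1:**
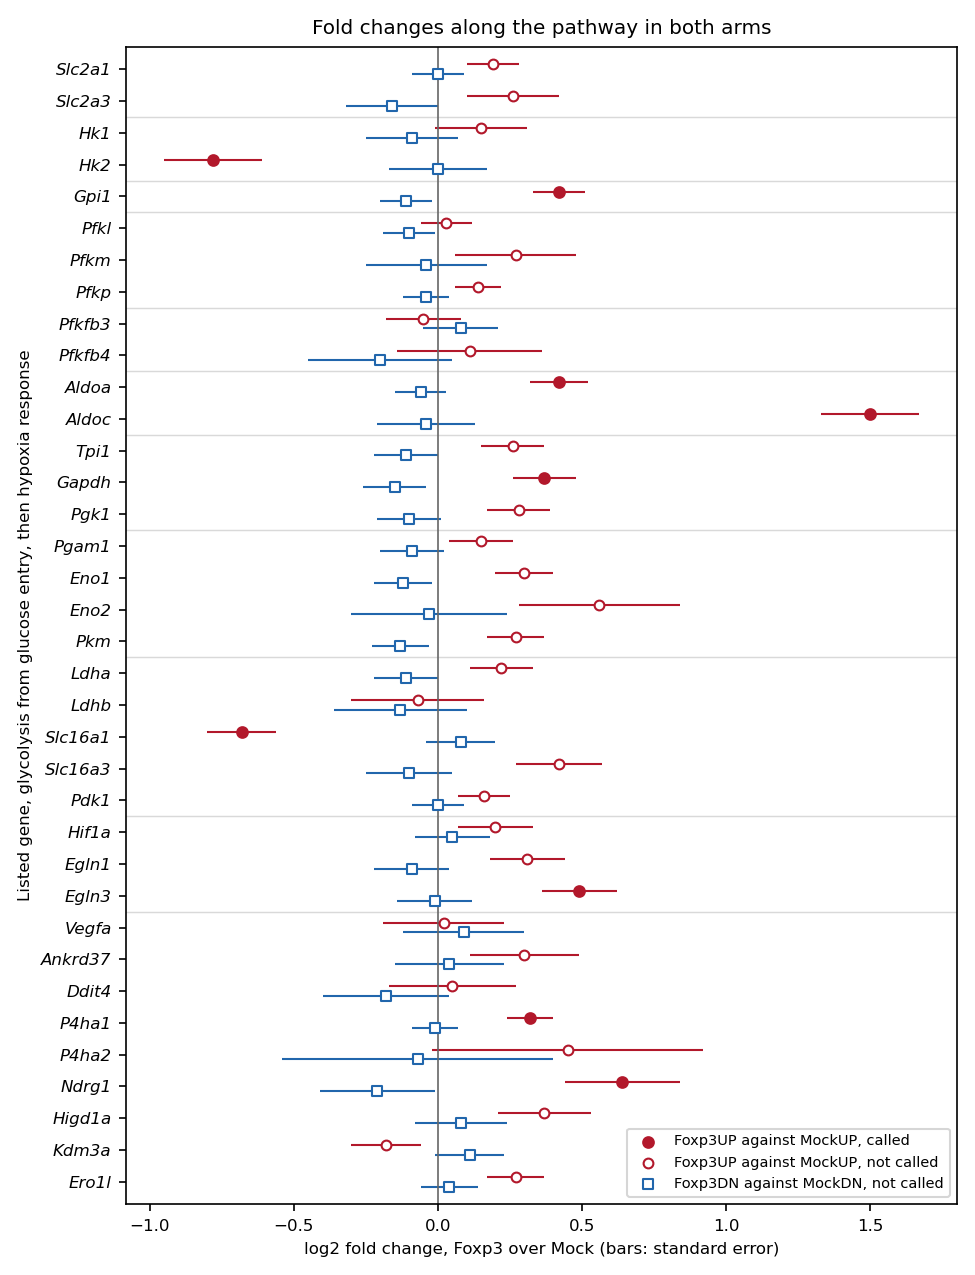
Log2 fold change (horizontal axis, bars are standard errors) of each of the 36 genes in pathway order, for Foxp3UP over MockUP (circles) and Foxp3DN over MockDN (squares); filled symbols passed the test. Aldoc lies farthest right at 1.5 and Hk2 farthest left at -0.78 in Foxp3UP over MockUP, while every Foxp3DN over MockDN value lies between -0.21 and 0.11.

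Glucose enters through Slc2a1 (GLUT1) and Slc2a3 (GLUT3). Slc2a1 had 380, 374, 393 and 379 CPM in Foxp3UP replicates 1 to 4, against 331, 321, 371 and 317 CPM in MockUP. All Foxp3UP libraries were above all MockUP libraries, but the difference of 0.19 ± 0.09 (log2, SE) did not pass (edgeR adjusted p = 0.208; 0.0217 with the term for each pair). Slc2a3 had 574 to 737 CPM in Foxp3UP and 399 to 718 CPM in MockUP, and the groups overlapped. The MockUP libraries of Slc2a3 split by set, with replicates 1 and 2 at 677 and 718 CPM and replicates 3 and 4 at 459 and 399 CPM.

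Hexokinases trap glucose as glucose-6-phosphate, and the 2 listed forms differed in direction of fold change. Hk2, the inducible form, had 33.6, 45.6, 37.5 and 37 CPM in Foxp3UP, against 54.2, 94.1, 59.6 and 56.8 CPM in MockUP. All Foxp3UP libraries of Hk2 lay below all of MockUP, and MockUP 2 was the highest of the 16 libraries. Hk2 was 1.72-fold lower in Foxp3UP (log2 fold change -0.78 ± 0.17, edgeR adjusted p = 0.00628), and without MockUP 2 the value was -0.57 (edgeR adjusted p = 0.00853). In the DN arm Hk2 had 51 to 72.4 CPM in Foxp3DN and 49.7 to 66.8 CPM in MockDN. Hk1, the constitutive form, had 303, 258, 229 and 227 CPM in Foxp3UP, against 270, 293, 189 and 166 CPM in MockUP, with overlapping groups (0.15 ± 0.16, edgeR adjusted p = 0.604).

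Gpi1, which interconverts glucose-6-phosphate and fructose-6-phosphate, had 1130, 1040, 956 and 925 CPM in Foxp3UP, against 842, 749, 738 and 699 CPM in MockUP. No library of the 2 groups overlapped, and Gpi1 was 1.34-fold higher (log2 fold change 0.42 ± 0.09, edgeR adjusted p = 0.00522). Its exons (ENSMUSG00000036427, mm10 7:34201330 to 34230336, minus strand) share 741 bases with the opposite-strand gene Gm26762. Gm26762 itself had a log2 fold change of 0.51 (edgeR adjusted p = 0.00192) at 23621 counts over all libraries against 149341 for Gpi1, and since the use of strand in counting is not given, reads of the shared bases cannot be told apart.

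Phosphofructokinase commits the sugar to glycolysis, and Pfkfb3 and Pfkfb4 set the level of its activator fructose-2,6-bisphosphate. Pfkp, the platelet-type enzyme and the most abundant of the 3 per length, had 941, 972, 961 and 962 CPM in Foxp3UP, against 879, 929, 873 and 810 CPM in MockUP. The groups did not overlap, but the difference was small and not called (0.14 ± 0.08, edgeR adjusted p = 0.271). Pfkl, the liver-type enzyme, was at 0.03 and Pfkm, the muscle-type enzyme, at 0.27, neither called. Pfkfb3 had 40.9, 44.7, 48.8 and 40.6 CPM in Foxp3UP, against 36.3, 59, 42.5 and 43.7 CPM in MockUP, and Pfkfb4 had 2.24 to 3.36 CPM in Foxp3UP and 1.73 to 3.7 CPM in MockUP. Both overlapped between the groups.

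Aldolase cuts fructose-1,6-bisphosphate into triose phosphates, and both listed aldolases were higher. Aldoc, known as the brain-type aldolase, had 67.7, 51.1, 56.2 and 51.6 CPM in Foxp3UP, against 27.8, 18.2, 20 and 13.7 CPM in MockUP. It also stood at 25.7, 23.6, 17.9 and 21.4 CPM in Foxp3DN, against 23.8, 23.8, 19.8 and 23.9 CPM in MockDN. The 4 Foxp3UP libraries were thus above all 12 others, and Aldoc was 2.84-fold higher than in MockUP (log2 fold change 1.5 ± 0.17, edgeR adjusted p = 5.96e-05). Aldoa had 3130, 2960, 2750 and 2730 CPM in Foxp3UP, against 2300, 1820, 2370 and 2180 CPM in MockUP. Aldoa was 1.34-fold higher (log2 fold change 0.42 ± 0.10, edgeR adjusted p = 0.00866), the groups did not overlap, and MockUP 2 was the lowest library; without it the value was 0.34 (edgeR adjusted p = 0.0108).

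**Figure D2:**
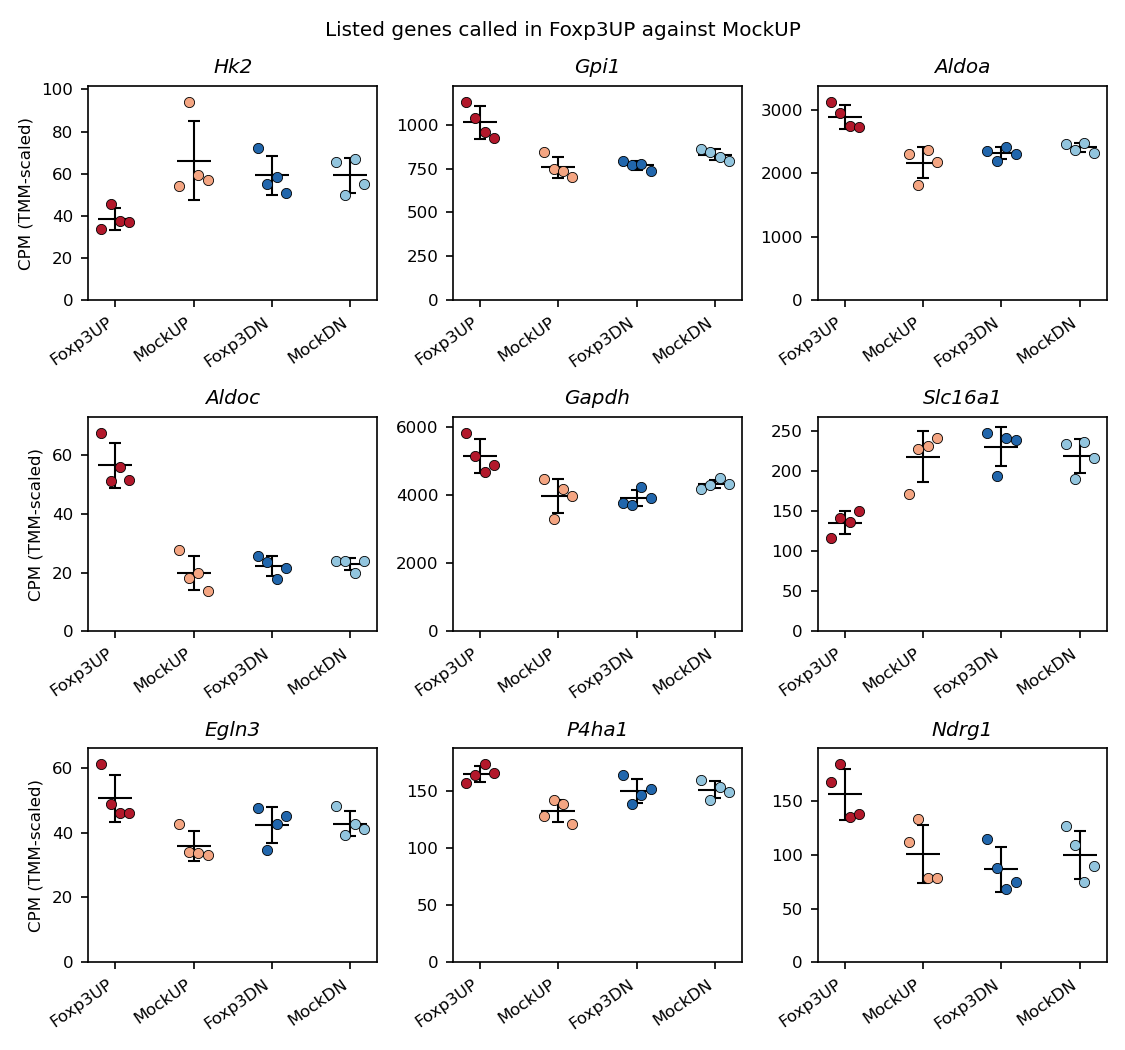
TMM-scaled CPM (vertical axes from 0) of the 9 listed genes called in Foxp3UP against MockUP, with a point for each of the 4 libraries of a group and bars for mean and SD. In all 9 panels the Foxp3UP points lie apart from the MockUP points, and for Aldoc, Gpi1, Aldoa, Gapdh, Ndrg1, Hk2 and Slc16a1 they also lie apart from the Foxp3DN points.

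The triose phosphate steps held Tpi1, Gapdh and Pgk1. Gapdh, the enzyme that makes the first NADH of the pathway, had 5840, 5150, 4700 and 4900 CPM in Foxp3UP, against 4480, 3290, 4190 and 3980 CPM in MockUP. The groups did not overlap and Gapdh was 1.29-fold higher (log2 fold change 0.37 ± 0.11, edgeR adjusted p = 0.0298). The call rests on several libraries: without MockUP 2 the value was 0.28 (edgeR adjusted p = 0.0524), and it was also lost without Foxp3UP 1 (0.112), Foxp3UP 2 (0.0626), MockUP 3 (0.0512) or MockUP 4 (0.0706). How reads shared with the many processed copies of Gapdh were counted is not given, so its level is uncertain. Tpi1, triose phosphate isomerase, had 1370 to 1640 CPM in Foxp3UP and 937 to 1400 CPM in MockUP (0.26 ± 0.11, edgeR adjusted p = 0.154). Pgk1, phosphoglycerate kinase, which makes the first ATP, had 846 to 1130 CPM in Foxp3UP and 661 to 896 CPM in MockUP (0.28 ± 0.11, edgeR adjusted p = 0.0967). Both overlapped because MockUP 1 reached into the Foxp3UP range.

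In lower glycolysis no gene was called. Eno1 had 5160, 4620, 4310 and 4310 CPM in Foxp3UP, against 4350, 3290, 3740 and 3560 CPM in MockUP, so that MockUP 1 alone overlapped (0.30 ± 0.10, edgeR adjusted p = 0.0608). Pkm had 4020, 3630, 3310 and 3380 CPM in Foxp3UP, against 3360, 2900, 2780 and 2830 CPM in MockUP, again with MockUP 1 as the overlapping library (0.27 ± 0.10, edgeR adjusted p = 0.0739). With the term for each pair, Eno1 (edgeR adjusted p = 0.00282) and Pkm (0.00232) were called higher. Pgam1, phosphoglycerate mutase, stood at 0.15 and Eno2, gamma-enolase, at 0.56 with an SE of 0.28 on 1.57 to 4.23 CPM over the Foxp3UP and MockUP libraries.

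At the lactate end 1 of the 2 monocarboxylate transporters was lower and the other was not called. Slc16a1 (MCT1) had 116, 141, 136 and 150 CPM in Foxp3UP, against 171, 228, 232 and 241 CPM in MockUP. All Foxp3UP libraries lay below all MockUP libraries, and Slc16a1 was 1.6-fold lower (log2 fold change -0.68 ± 0.12, edgeR adjusted p = 0.00157). Slc16a3 (MCT4), the low-affinity lactate exporter and a known HIF-1 target, had 274, 232, 244 and 193 CPM in Foxp3UP, against 219, 194, 149 and 142 CPM in MockUP. Its groups overlapped and it was not called (0.42 ± 0.15, edgeR adjusted p = 0.0781; 0.00136 with the term for each pair). Ldha had 5160, 4560, 4420 and 4470 CPM in Foxp3UP, against 4510, 3140, 4160 and 4200 CPM in MockUP (0.22 ± 0.11, edgeR adjusted p = 0.220). Without MockUP 2, the lowest library for Ldha, the value was 0.11. Ldhb, the subunit that favours lactate oxidation, stayed at 3.31 to 5.97 CPM in Foxp3UP and 3.32 to 6.08 CPM in MockUP, and Pdk1, which blocks pyruvate entry into mitochondrial metabolism, was at 0.16 (edgeR adjusted p = 0.291).

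The balance between paired forms was followed as the log2 ratio of their levels per kilobase in each library, for 11 pairs and with no test. In 3 pairs the Foxp3UP and MockUP libraries did not overlap. Each holds a gene already called without overlap (Aldoc and Aldoa, Hk2, or Slc16a1), so these ratios are not separate evidence. No such share was taken over other gene pairs. Aldoc made up 1.52 to 1.89% of the Aldoc and Aldoa sum in Foxp3UP, against 0.559 to 1.07% in MockUP, so Aldoa remained the dominant aldolase in every library. Hk2 made up 13.7 to 20.2% of the Hk2 and Hk1 sum in Foxp3UP, against 22.3 to 32.8% in MockUP. Slc16a1 made up 33.8 to 48.3% of the Slc16a1 and Slc16a3 sum in Foxp3UP, against 48.4 to 67% in MockUP, a gap between the nearest libraries of 48.3 and 48.4%. The mean log2 ratios differed by 1.12, -0.93 and -1.10 for these pairs in that order, and by 1.17, -0.88 and -1.13 without MockUP 2. In the other 8 pairs, among them Slc2a3 with Slc2a1 and Egln3 with Egln1, the groups overlapped.

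**Figure D3:**
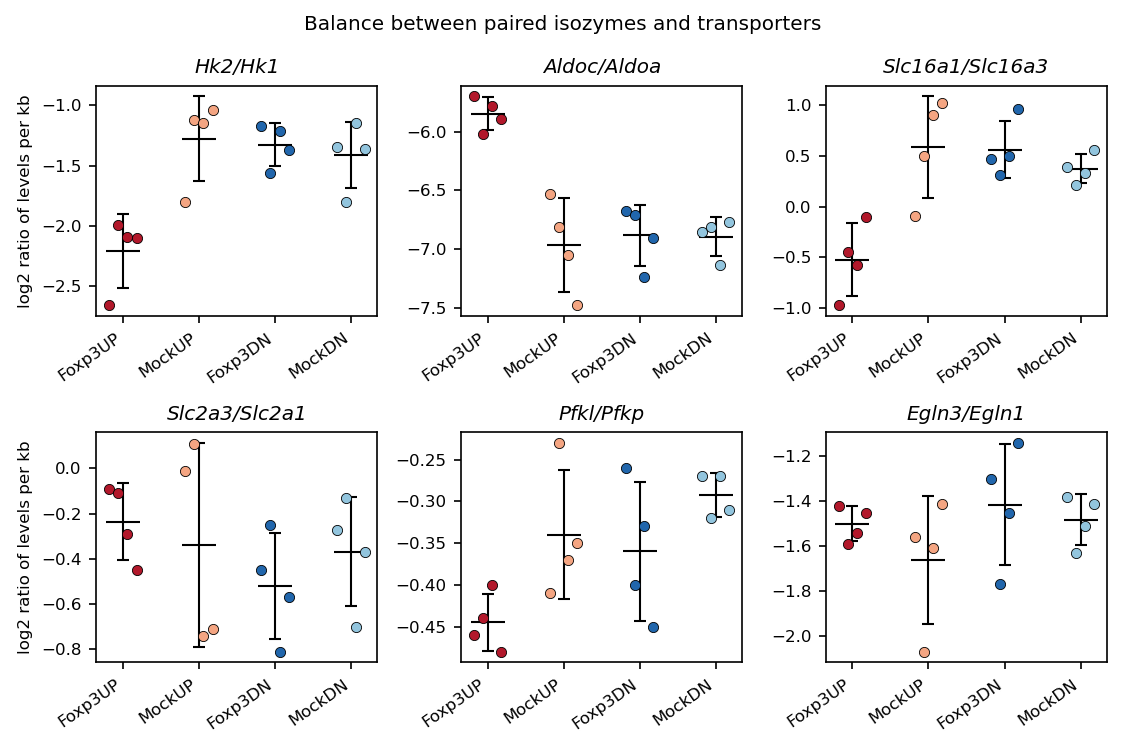
Log2 ratio of the levels per kilobase of paired isozymes or transporters (vertical axes) for 6 of the 11 pairs, a point per library with mean and SD, in the 4 groups. Foxp3UP libraries lie below MockUP for Hk2/Hk1 and Slc16a1/Slc16a3 and above for Aldoc/Aldoa, and the groups overlap in the lower panels.

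Oxygen sensing came next. Hif1a, the alpha subunit of HIF-1, had 933, 1230, 1260 and 1230 CPM in Foxp3UP, against 859, 1290, 956 and 937 CPM in MockUP. Foxp3UP 1 and MockUP 2 each lay away from the rest of their group, and Hif1a was not called (0.20 ± 0.13, edgeR adjusted p = 0.319), but without MockUP 2 it was called at 0.34 (edgeR adjusted p = 0.0329). Its level is transcript only, while its known control by oxygen acts on the protein. Egln3, the prolyl hydroxylase PHD3 and a HIF target itself, had 61.2, 48.8, 46.1 and 46.1 CPM in Foxp3UP, against 42.7, 34, 33.6 and 33.2 CPM in MockUP. The groups did not overlap and Egln3 was 1.41-fold higher (log2 fold change 0.49 ± 0.13, edgeR adjusted p = 0.0173); the call was lost without Foxp3UP 1 (0.0777), MockUP 3 (0.0552) or MockUP 4 (0.0551). Egln1, the prolyl hydroxylase PHD2, was at 0.31 (edgeR adjusted p = 0.118), and at 0.43 without MockUP 2 (edgeR adjusted p = 0.0220).

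Among hypoxia-induced targets P4ha1 and Ndrg1 were higher. P4ha1, a subunit of collagen prolyl 4-hydroxylase, had 157, 164, 174 and 166 CPM in Foxp3UP, against 128, 142, 139 and 121 CPM in MockUP. It was 1.25-fold higher with no overlap (log2 fold change 0.32 ± 0.08, edgeR adjusted p = 0.0158), a call lost without Foxp3UP 3 (0.0511), without MockUP 4 (0.0533) and with no filter on low counts (0.0902). Ndrg1, a stress-induced cytosolic protein, had 168, 185, 135 and 138 CPM in Foxp3UP, against 112, 134, 78.8 and 78.7 CPM in MockUP. The lowest Foxp3UP library of Ndrg1, at 135 CPM, barely cleared the highest MockUP library, at 134 CPM, and both groups were higher in replicates 1 and 2. Ndrg1 had the largest log2 fold change among hypoxia genes, 0.64 ± 0.20 (edgeR adjusted p = 0.0470). Its call was lost without any 1 of the 4 Foxp3UP libraries (0.0587 to 0.130), MockUP 3 (0.128) or MockUP 4 (0.126), with library totals (0.0894) and with no filter (0.129). Exons of Ndrg1 share 419 bases with the opposite-strand gene Gm17035, itself higher at 0.69 (edgeR adjusted p = 0.0357) with 5362 counts over all libraries against 19690 for Ndrg1, so the value is uncertain in the same way as that of Gpi1. In all, 13 of the 36 genes share exonic bases with another gene. Among them are Pkm (767 bases, Gm49759 on the same strand) and Higd1a (683 bases, Gm47112 on the opposite strand).

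The other targets were not called. Ero1l, an oxidoreductase that forms disulfides in the endoplasmic reticulum, had 340, 329, 287 and 270 CPM in Foxp3UP, against 280, 276, 248 and 214 CPM in MockUP (0.27 ± 0.10, edgeR adjusted p = 0.105). Higd1a, a small mitochondrial protein, had 80.6 to 94.2 CPM in Foxp3UP and 39.5 to 80 CPM in MockUP, without overlap (0.37 ± 0.16, edgeR adjusted p = 0.153). MockUP 2 was the lowest library for Higd1a, at 39.5 CPM against 70.5 to 80 CPM in the others of its group, and without it the value was 0.18. Vegfa, the angiogenic growth factor, was at 0.02, Ddit4 (REDD1), an inhibitor of mTORC1, at 0.05, Ankrd37, an ankyrin repeat protein, at 0.30 and P4ha2 at 0.45 with an SE of 0.47. Kdm3a, a histone demethylase and a known HIF-1 target, had 102, 118, 121 and 118 CPM in Foxp3UP, against 111, 168, 124 and 118 CPM in MockUP (-0.18 ± 0.12, edgeR adjusted p = 0.343).

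MockUP 2 moved the listed genes in both directions. Its level was above all 3 other MockUP libraries for 15 genes, Hk2, Hif1a, Ddit4 and Kdm3a among them, below all 3 for 10 and within their range for 11. The 10 below were Aldoa, Tpi1, Gapdh, Pgk1, Pgam1, Eno1, Ldha, Ldhb, Ankrd37 and Higd1a. MockUP 2 also had the strongest rank correlation of level with exonic length over all tested genes, at 0.398 against 0.279 to 0.323 in the others. Short genes such as Ankrd37 (1539 bases) and Pgam1 (1982) lay below, and long genes such as Hk1 (8532) and Kdm3a (8225) above. Others went the other way, with Eno1 (5379) below and Ddit4 (1755) above. The part of gene length in these positions was not tested. Without MockUP 2, 8 of the 36 genes were higher and 2 lower: Gapdh left the calls and Hif1a and Egln1 joined them.

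**Figure D4:**
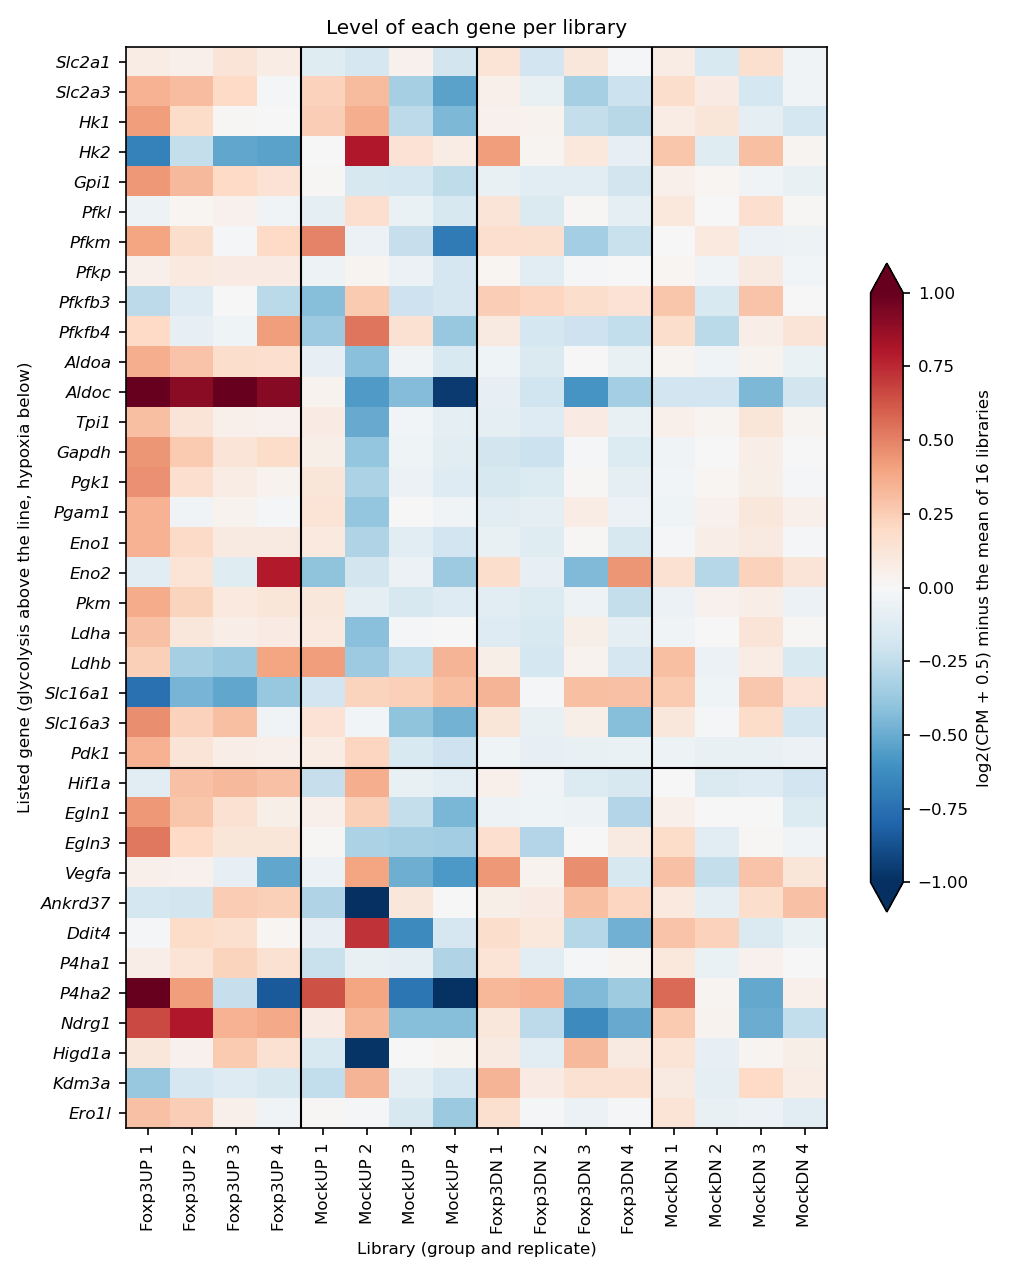
Each row is a listed gene and each column a library; colour is log2(CPM + 0.5) minus the mean of the 16 libraries, with the scale capped at -1 and 1. The Aldoc row is red in all Foxp3UP columns and the Hk2 and Slc16a1 rows are blue there, while the MockUP 2 column is blue for the abundant glycolytic genes and red for Hk2, Ddit4 and Hif1a.

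Replicates 1 and 2 and replicates 3 and 4 were also fitted apart. All 9 called genes had the same sign in both sets, as a call over all libraries favours. Aldoc was at 1.36 in replicates 1 and 2 and 1.65 in replicates 3 and 4, Hk2 at -0.91 and -0.67, Slc16a1 at -0.63 and -0.74, and Gpi1 at 0.45 and 0.37. The remaining values in the same order were 0.56 and 0.25 for Aldoa, 0.50 and 0.21 for Gapdh, 0.51 and 0.44 for Egln3, 0.25 and 0.36 for P4ha1 and 0.52 and 0.77 for Ndrg1. With replicates 1 and 2 alone 0 of the 36 genes were called, where 31 genes or 0.221% of all those tested were called, 0.164% higher and 0.0571% lower. Replicates 3 and 4 alone gave 15 higher and 2 lower, where 3025 genes or 22.2% of all were called, 10.1% higher and 12% lower. This share too cannot show an excess, given how the genes were chosen. In replicates 1 and 2 Aldoc had the smallest adjusted p of the list (edgeR adjusted p = 0.0586). Ddit4, at -0.29 and 0.47, Pfkm, at 0.05 and 0.55, and Slc2a3, at 0.05 and 0.51, lay farthest apart between the sets, and that difference was not tested.

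**Figure D5:**
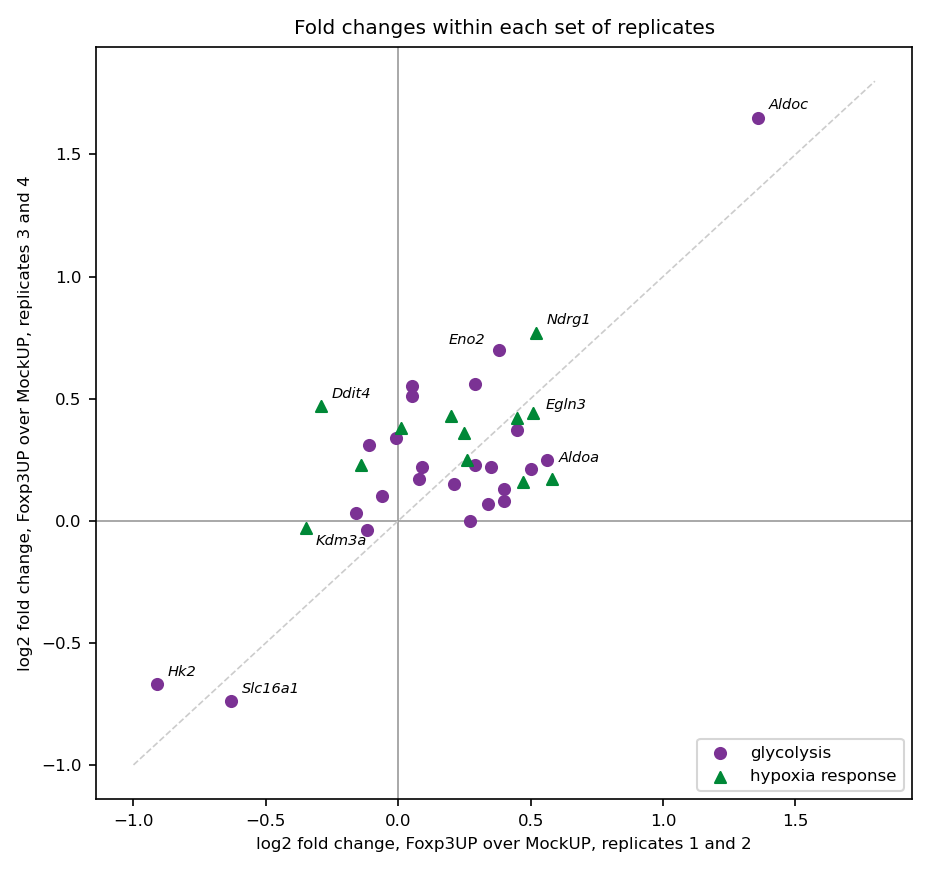
Log2 fold change of Foxp3UP over MockUP in replicates 1 and 2 (horizontal axis) and replicates 3 and 4 (vertical axis) for the 36 genes; the dashed line marks equal values. Aldoc lies at 1.36 and 1.65 and Hk2 at -0.91 and -0.67, while Ddit4 lies at -0.29 and 0.47.

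In Foxp3DN against MockDN none of the 36 genes was called by edgeR (0.00729% of all tested genes, or 1 gene, was), none had an unadjusted p under 0.05 and none was called by DESeq2. Values ran from -0.21 for Ndrg1 to 0.11 for Kdm3a, with a median of -0.06 and a median SE of 0.13, and 8 of 36 were positive. Gpi1 was the 1 listed gene without overlap, at 791, 771, 775 and 734 CPM in Foxp3DN, against 864, 846, 814 and 791 CPM in MockDN (-0.11 ± 0.09); over all tested genes 1.15% did not overlap, 0.547% higher and 0.598% lower. A miss of the threshold does not show that levels were equal, and changes of the size of most UP arm values would be hard to see with this SE.

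The difference between the Foxp3 effects, UP arm minus DN arm, tests whether they are alike. It was called for 3 of the 36 genes, 2 higher and 1 lower, where 1.83% of all tested genes were called, 0.963% higher and 0.868% lower. Because the genes were chosen with earlier results of these data known, neither this share nor those of the other fits can show an excess. Aldoc differed by 1.55 ± 0.24 (edgeR adjusted p = 0.00392), Gpi1 by 0.53 ± 0.12 (edgeR adjusted p = 0.0370) and Slc16a1 by -0.76 ± 0.17 (edgeR adjusted p = 0.0292). Hk2, at -0.78 ± 0.24, missed the threshold (edgeR adjusted p = 0.100). None of the 12 hypoxia genes passed, with Ndrg1 at 0.85 ± 0.28 (edgeR adjusted p = 0.138) and Egln3 at 0.51 ± 0.18 (edgeR adjusted p = 0.161). With the term for each pair 14 genes were higher and 2 lower, where 12.7% of all genes were called, 6.53% higher and 6.16% lower. With the replicate block 7 were higher and 1 lower, where 5.91% were called, 2.94% higher and 2.98% lower. In the fit with the term for each pair the difference passed for Ndrg1 (edgeR adjusted p = 0.000232), Egln3 (0.00719), Egln1 (0.0191), P4ha1 (0.0208) and Hk2 (0.00269), and with the replicate block for Ndrg1 (0.00243) and Egln3 (0.0301). None of these hypoxia genes passed with a single library left out and no pair term. DESeq2 called 8, Hk2 among them (0.0375), and leaving out single libraries gave 1 to 4. The call of Gpi1 was lost without any 1 of the Foxp3DN libraries, Foxp3UP 1, 2 or 3, MockDN 1, 2 or 4, or MockUP 3 or 4 (0.0596 to 0.0991), and with library totals (0.0640) or no filter (0.0876). That of Slc16a1 was lost without Foxp3DN 1, 3 or 4, Foxp3UP 1 or 3, MockDN 2 or 4, or MockUP 3 or 4 (0.0502 to 0.0704), whereas Aldoc was called with each single library left out.

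Foxp3UP was also set against Foxp3DN, which carry the same label for the altered gene in the other arm. Here 6 genes were higher and 3 lower, where 11.8% of all tested genes were called, 6% higher and 5.78% lower, with a median of 0.22. Given the choice of genes with earlier results known, no share in this comparison can show an excess. The libraries did not overlap for 12 higher and 4 lower genes, where 22.9% of all tested genes did not overlap, 11.7% higher and 11.2% lower. With the replicate block 10 were higher and 3 lower, where 20.1% of all genes were called, 11% higher and 9.13% lower. Aldoc was at 1.35 (edgeR adjusted p = 0.000123), Ndrg1 at 0.86 (0.0102), Gapdh at 0.40 (0.0218), Gpi1 at 0.40 (0.00689), Pkm at 0.34 (0.0280) and Aldoa at 0.32 (0.0365). The lower genes were Slc16a1 at -0.76 (edgeR adjusted p = 0.000715), Hk2 at -0.62 (0.0232) and Kdm3a at -0.39 (0.0369). Kdm3a had 102, 118, 121 and 118 CPM in Foxp3UP, against 167, 140, 147 and 147 CPM in Foxp3DN, with no overlap. Pkm had 3310 to 4020 CPM in Foxp3UP, against 2640 to 2990 CPM in Foxp3DN, likewise without overlap. P4ha1 and Egln3, both called against MockUP, were at 0.13 (edgeR adjusted p = 0.313) and 0.26 (0.207) against Foxp3DN. With any single library left out 4 to 7 genes were called in this comparison; the count was 4 without Foxp3UP 1, Foxp3DN 1 or Foxp3DN 3 and 5 without Foxp3UP 2 or Foxp3DN 4. Of the 8 such fits, Aldoa and Kdm3a each lost their call in 7, Pkm in 6, Gapdh and Hk2 each in 5 and Ndrg1 in 1 (without Foxp3DN 3), while Aldoc, Gpi1 and Slc16a1 were called in all 8.

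MockUP against MockDN compares the controls. None of the 36 genes was called by edgeR (0.00729% of all genes) or DESeq2, and P4ha1 alone had an unadjusted p under 0.05. It was also the 1 gene without overlap, where 1.85% of all tested genes did not overlap, 0.751% higher and 1.09% lower. P4ha1 stood at 128, 142, 139 and 121 CPM in MockUP, against 160, 142, 154 and 149 CPM in MockDN (-0.19 ± 0.08, edgeR adjusted p = 0.999). Among the listed genes MockUP nevertheless tended to be low: 29 of the 36 log2 fold changes were negative, with a median of -0.10. Over all tested genes the median was 0.01. Some listed genes varied together within groups (Tpi1 and Ldha at r = 0.98), so these signs are not independent. The tendency lay mostly in replicates 3 and 4, where 33 of 36 were negative (median -0.18), against 21 of 36 in replicates 1 and 2 (median -0.04). Ankrd37 was at -0.38, Vegfa and Higd1a at -0.26 and Egln3 at -0.25. MockUP had the lowest mean of the 4 groups for 19 genes (52.8%, against 22.4% of all tested genes) and Foxp3UP the highest for 28 (77.8%, against 39.4%), and both held for 16 (44.4%, against 13.5%). The 36 genes were chosen with earlier results of these data known, the low MockUP level among them, so these shares cannot show an excess. The same MockUP libraries enter this comparison and Foxp3UP against MockUP, so the values of P4ha1 (-0.19 and 0.32) and Egln3 (-0.25 and 0.49) are not independent of each other.

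Related genes outside the list give the surroundings. Of 36 further genes of glycolysis and pyruvate metabolism 26 were tested, and 2 were higher and 1 lower in Foxp3UP against MockUP, with a median of 0.06. Their called share of 11.5% was near the 12.1% of all tested genes, so the count does not set this list apart. Pdk2, a pyruvate dehydrogenase kinase, had 3.67 ± 0.389 CPM in Foxp3UP and 1.59 ± 0.503 CPM in MockUP (SD, n = 4 each; 1.19, edgeR adjusted p = 0.00454). Slc2a8 (GLUT8), an intracellular hexose transporter, was at 0.60 (edgeR adjusted p = 0.00355) and Adpgk, an ADP-dependent glucokinase, at -0.67 (edgeR adjusted p = 0.0219). Of 36 further hypoxia-response genes 30 were tested, and 7 were higher and 1 lower, with a median of 0.11. These are 26.7% of the 30, where 12.1% of all tested genes were called, 6.08% higher and 5.99% lower. The further lists were chosen with earlier results of these data known, so this share cannot show an excess. Stc2, a secreted glycoprotein, was at 0.89 (edgeR adjusted p = 0.0165) and Narf at 0.40 (edgeR adjusted p = 0.0144), beside the mitophagy receptors Bnip3 at 1.37 (0.000191) and Bnip3l at 0.47 (0.00628). Car12, a carbonic anhydrase, was the lower gene, at 7.18 ± 0.790 CPM in Foxp3UP and 15.9 ± 2.76 CPM in MockUP (-1.15, edgeR adjusted p = 0.00117).

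Promoters were read for 33 of the 36 genes as RefSeq windows on GRCm38.p6 from 250 bases before to 50 after the gene start. The HIF core, searched as ACGTG and GCGTG on both strands, occurred in 26 of the 33 windows (78.8%) and in 43.8% of 32851 windows of all genes, which were also poorer in GC (median 52.7%, against 65% for the listed genes). CACGTG, which overlaps ACGTG on both strands and is the E-box of Myc and related factors, was in 4 windows (12.1%, against 7.20%). Each listed gene gave 1 window, whereas the 32851 were all promoter entries. The list was made of glycolytic and hypoxia-inducible genes, so neither share can show an excess. The stretches before the gene models of 2 higher glycolytic genes, 1 higher hypoxia gene and both lower genes are shown 5′ to 3′ on the gene's strand, with HIF core matches in capitals.
Aldoc (chr11:78322823-78322967, plus strand): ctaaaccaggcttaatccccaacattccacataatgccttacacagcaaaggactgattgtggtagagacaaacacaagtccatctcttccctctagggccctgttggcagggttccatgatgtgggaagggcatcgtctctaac
Gpi1 (chr7:34230337-34230586, minus strand): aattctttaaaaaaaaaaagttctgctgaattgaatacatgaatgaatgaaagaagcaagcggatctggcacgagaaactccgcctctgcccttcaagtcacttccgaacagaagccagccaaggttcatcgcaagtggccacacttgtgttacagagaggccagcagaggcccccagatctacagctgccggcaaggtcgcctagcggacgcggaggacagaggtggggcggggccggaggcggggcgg
P4ha1 (chr10:59323046-59323295, plus strand): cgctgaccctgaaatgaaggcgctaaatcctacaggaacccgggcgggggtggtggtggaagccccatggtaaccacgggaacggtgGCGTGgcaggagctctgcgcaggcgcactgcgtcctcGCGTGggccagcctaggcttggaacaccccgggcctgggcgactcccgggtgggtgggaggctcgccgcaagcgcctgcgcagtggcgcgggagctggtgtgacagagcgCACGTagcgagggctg
Hk2 (chr6:82774455-82774704, minus strand): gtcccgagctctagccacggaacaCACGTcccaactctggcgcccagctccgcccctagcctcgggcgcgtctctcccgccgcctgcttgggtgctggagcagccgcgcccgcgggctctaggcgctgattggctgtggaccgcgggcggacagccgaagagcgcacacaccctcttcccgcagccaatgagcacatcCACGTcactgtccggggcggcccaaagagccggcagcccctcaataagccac
Slc16a1 (chr3:104638414-104638663, plus strand): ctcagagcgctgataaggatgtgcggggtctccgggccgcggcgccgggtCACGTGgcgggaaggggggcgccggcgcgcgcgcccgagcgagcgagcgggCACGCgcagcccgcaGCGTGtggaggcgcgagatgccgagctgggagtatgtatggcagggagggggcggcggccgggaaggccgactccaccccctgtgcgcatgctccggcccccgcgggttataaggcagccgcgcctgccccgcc
The lower genes Hk2 and Slc16a1 held 2 and 4 matches in the stretches shown, and 1 pair of matches in Slc16a1 formed a CACGTG. P4ha1 held 3, while Gpi1 held 0 and Aldoc 0 in the 145 bases shown, with 3 more in its window beyond them. A match describes letters and says nothing of binding.

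Other cells in the sort were looked at beside the listed genes. Markers of macrophages and monocytes summed to 57.9 to 80.7 CPM in Foxp3UP, against 44.6 to 62.7 CPM in MockUP, with 1 of 9 tested markers called higher and 0 lower. The called marker was Cd68, at 20.3 to 29.2 CPM in Foxp3UP and 9.87 to 16.6 CPM in MockUP. Others lay the other way without being called: Apoe had 5.57 to 7.05 CPM in Foxp3UP and 7.55 to 10.2 CPM in MockUP, and Csf1r had 5.4 to 6.72 CPM in Foxp3UP and 6.36 to 8.83 CPM in MockUP. Dendritic cell markers summed to 58.7 to 84.3 CPM in Foxp3UP, against 38 to 61.4 CPM in MockUP, with 1 of 2 tested markers called higher. The called marker was H2-Ab1, at 43.6 to 64.9 CPM in Foxp3UP and 19.9 to 42.2 CPM in MockUP. Xcr1 overlapped, at 14.4 to 22.4 CPM in Foxp3UP and 15.5 to 19.1 CPM in MockUP. Flt3, Clec9a and Cd209a had at most 0.276 CPM in either group, and Siglech was at 0. Melanocytic and epithelial markers summed to 59.7 to 126 CPM in Foxp3UP, against 55.9 to 82.6 CPM in MockUP, with 0 of 6 called. They summed to less in the DN arm, 34.7 to 68.5 CPM in Foxp3DN and 23.8 to 63.4 CPM in MockDN, with some overlap. These sums are small beside Gapdh at 3290 to 5840 CPM, but similar in size to Aldoc, Egln3 and Hk2, and their part in the results was not tested. In Foxp3UP against Foxp3DN, 1 of 6 melanocytic and epithelial, 1 of 9 macrophage and monocyte and 1 of 2 fibroblast and endothelial markers were called higher. There 1 of 2 NK cell and 1 of 2 CD4 T cell markers were called lower. In bulk samples more cells of a type and more RNA per cell cannot be told apart.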

How the data were processed

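The authors deposited a table of raw counts, 1 row per gene and 1 column per library, with gene coordinates and exonic length per the file headers. Per the submitters' processing notes the tools were STAR 2.6.1 and Subread 1.6.3 on mm10; how reads were assigned (strand, multiple hits, annotation release) is not stated there. Symbols came from GENCODE M21 through the supplied table, which named 55394 of 55573 identifiers.

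Genes were filtered with filterByExpr at a minimum count of 10, TMM-scaled, then fitted in edgeR 4.0.16 (R 4.3.3; quasi-likelihood F test, robust, all 16 libraries, a term per group, two-sided, Benjamini-Hochberg over all 13711 tested genes, called under 0.05). The SE is the log2 fold change divided by the square root of F. DESeq2 1.42.0 was an alternative. Steps were tested on simulated data. Levels are TMM-scaled CPM.

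The 36 genes, the lists and the markers were chosen with earlier results of these data known. All 36 genes are named, with values per library for those called in any comparison and for the most abundant gene of each step; from the other lists, up to 4 called genes per direction with the smallest adjusted p. Symbols on several rows were read from the row with most counts. Same-numbered libraries of an arm deviated together from their group means, with r of 0.213 to 0.630 (UP) and 0.298 to 0.582 (DN). For Foxp3UP 4 the r with MockUP 4 was 0.398, against at most 0.364 with another MockUP library, and for Foxp3UP 2 it was 0.213 against 0.173. The numbers were read as pairing libraries within an arm, which the labels do not state. The term for each such pair was added after the data were seen. Matching numbers of different arms correlated at 0.107 to 0.326, and often not best.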

Additional observations from a re-analysis of the deposited data

Results flagged for a closer look

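The Foxp3 effects of the UP and DN arms differed for 3 listed genes in the test of that difference: by 1.55 on the log2 scale for Aldoc, by 0.53 for Gpi1 and by -0.76 for Slc16a1.

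In 8 of 144 gene and group combinations 1 library lay far from the other 3 of its group, measured as its gap to the nearest library divided by the range of the group; chance flags about 1 in 20, or 7.2. The values were 0.985 for Aldoc in MockDN 3 (19.8 CPM against 23.8 to 23.9), 0.963 for Egln1 in Foxp3DN 4 (134 against 157 to 158 CPM) and 0.928 for Hif1a in Foxp3UP 1 (933 against 1230 to 1260 CPM). Egln3 in MockUP 1 gave 0.908 (42.7 against 33.2 to 34 CPM) and Kdm3a in Foxp3UP 1 gave 0.859 (102 against 118 to 121 CPM). Slc16a1 gave 0.849 in Foxp3DN 2 (194 against 239 to 248 CPM) and 0.847 in MockUP 1 (171 against 228 to 241 CPM), and Ero1l gave 0.835 in MockDN 1 (305 against 258 to 265 CPM).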

How the results depend on the processing

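No gene called with all libraries in a comparison changed sign there under any setting tried; Ddit4, not called with all libraries, ran from -0.29 to 0.47 in Foxp3UP against MockUP. In Foxp3UP against MockUP, where 7 listed genes were higher and 2 lower, the counts were 13 and 2 with the replicate block, 18 and 2 (20 in all) with the block within each arm, 0 and 0 with replicates 1 and 2 only, 15 and 2 (17 in all) with replicates 3 and 4 only, and 1 and 2 with only the groups compared. With single libraries left out 3 to 11 were higher (3 without MockUP 4, 4 without MockUP 3 or Foxp3UP 1, 11 without MockUP 1) and 2 to 2 lower, 5 to 13 in all. The difference of effects, called for 3 genes, was called for 8 with the replicate block, 16 with the block within each arm, 0 with replicates 1 and 2 only, 14 with replicates 3 and 4 only, 8 with DESeq2 and 1 to 4 with single libraries left out (1 without Foxp3DN 1, 3 or 4, Foxp3UP 1 or 3, MockDN 2 or 4, or MockUP 3 or 4). Foxp3UP against Foxp3DN, called for 9, gave 1 with replicates 1 and 2 only and 4 to 7 with single libraries left out. Foxp3DN against MockDN and MockUP against MockDN gave 0 in every setting run, 0 to 0 with single libraries left out. The cause of these changes was not tested. Fits with only 2 replicates per group have few degrees of freedom. The block within arms cannot be fitted for comparisons across arms, and the difference of effects has no fit on fewer groups. Isozyme ratios differed between groups by the same amount without length scaling. Eno2, Pfkfb4 and P4ha2, among the lowest listed genes, had SEs of 0.25 to 0.47 in that comparison, which limits what their values show.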
